A study of Mus musculus with 90 samples.

Results

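The untreated state of both mouse tumour lines of the series was compared in 6 of its 90 libraries: 3 libraries of YUMM2.1, a melanoma line labelled as skin, and 3 of CT26, a colorectal cancer line labelled as colon. The 6 were chosen by their labels alone. Each held cells given BSA, the carrier protein, with 0 IU/mL of IFNγ at 0 weeks and 0 hours. The series as a whole cultured both lines for up to 3 weeks with BSA or 50 IU/mL of IFNγ and gave some cultures fresh IFNγ for 2 or 24 h before harvest, which makes 30 groups of 3 libraries. As general background on the lines, which the labels do not give, YUMM2.1 comes from a C57BL/6 mouse with engineered lesions that include Braf, Cdkn2a and the β-catenin gene, whereas CT26 comes from a carcinogen-induced BALB/c tumour. Each line was a single established culture, so cell lineage, mouse strain, driver lesions and culture history cannot be told apart in the comparison.

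Melanocytes descend from the neural crest. Sox10 and Pax3 set up the lineage and switch on Mitf, the factor that in turn drives the pigment genes, and melanoma cells can keep the neural crest factors while they lose the Mitf programme. Colon epithelium is held together by E-cadherin, Epcam, claudins and keratin pairs under factors such as Cdx2, and carcinoma cells that take on a mesenchymal form lose these proteins and gain vimentin and matrix proteins. MHC class I molecules, whose heavy chains H2-K1 and H2-D1 pair with B2m, show peptides to CD8+ T cells, and their genes respond to interferon.

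The assay counted tags at the 3′ ends of transcripts, and values are given here as CPM, counts relative to the library total after scaling between libraries. Library totals ran from 1458270 to 1677329 counts in CT26 and from 812316 to 1867497 in YUMM2.1, where replicate 2 was the shallowest library. Libraries of one line correlated at 0.957 to 0.977 (Pearson's r across genes, which are not independent, on log2 CPM) and libraries of different lines at 0.722 to 0.748. Among 7591 genes with enough counts to test, 1330 were called higher in YUMM2.1 (17.5%) and 1178 higher in CT26 (15.5%), 33% in all. A call needed an adjusted p below 0.05 in edgeR's quasi-likelihood test and a difference of at least 2-fold. With library totals as the only scaling the split was 1753 against 892, or 66.3% of calls on the YUMM2.1 side in place of 53%, and the median of all genes moved from 0.0245 to 0.256 on the log2 scale. The libraries came from triplicate experiments on 1 culture line each, so p-values measure the spread between those cultures. A count of 0 over the 3 libraries of a line allows up to 3 counts, or 0.658 CPM in YUMM2.1 or 0.698 CPM in CT26, and such limits cover counting error only. In bulk RNA, fewer cells that express a gene and less RNA per cell cannot be told apart.

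Of 506 genes in 14 lists on lineage, matrix, immunity and genotype, 505 were in the table, 186 had enough counts to test and 122 had 0 counts in all 6 libraries. Calls went to YUMM2.1 for 66 of the listed genes and to CT26 for 42. A gene expressed in 1 line only could enter the test through that line alone, so the counts below are given over all listed genes.

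**Figure D1:**
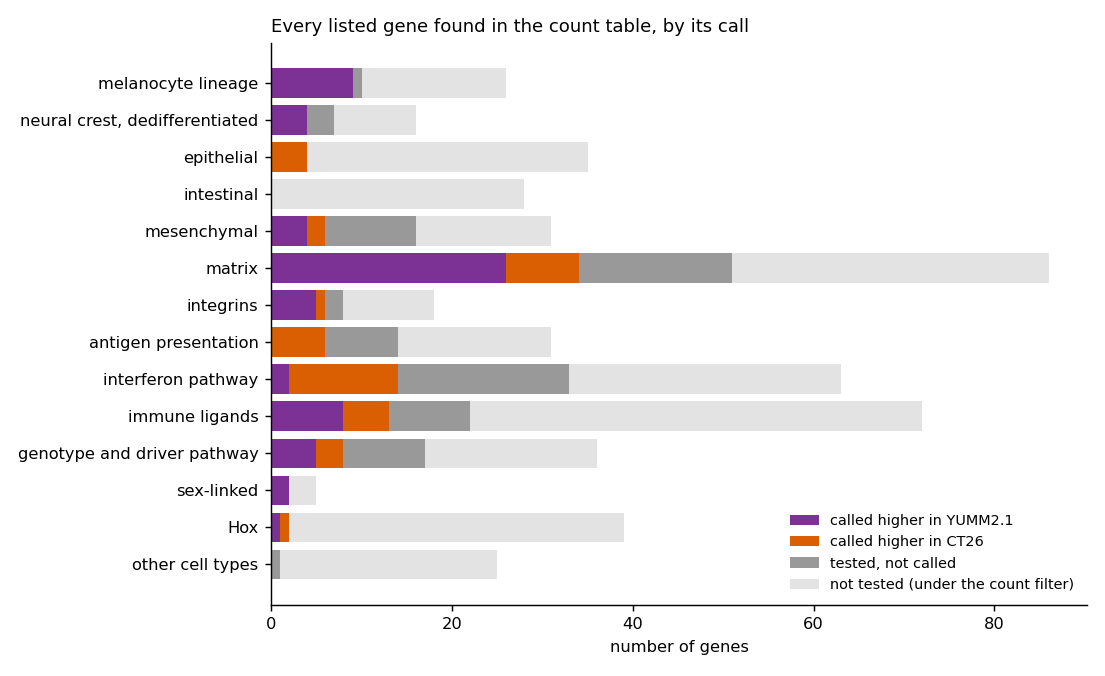
Number of genes (horizontal axis) in each of the 14 lists, split by the outcome of the comparison of 3 YUMM2.1 with 3 CT26 libraries. The melanocyte, neural crest, matrix and integrin lists carry more calls towards YUMM2.1, the epithelial, antigen presentation and interferon lists more towards CT26, and none of the 28 intestinal genes could be tested. Over all tested genes 17.5% were called higher in YUMM2.1 and 15.5% higher in CT26.

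YUMM2.1 carried neural crest and early melanocyte genes without the pigment programme. Of 26 melanocyte lineage genes, 9 were called higher in YUMM2.1 and 0 higher in CT26. Sox10, the neural crest factor that defines the melanocyte and Schwann cell lineages (chr15:79154908-79165240, GRCm38, minus strand), read 16.7, 17.9 and 20.2 CPM in YUMM2.1 replicates 1, 2 and 3 and had 0 counts in every CT26 library, at least 26.1-fold higher (adjusted p = 1.44e-07). Pax3, its partner factor, read 12.1, 14.6 and 14.8 CPM in YUMM2.1 beside 2.35, 0.676 and 0.649 CPM in CT26 (log2 fold change 3.46 ± 0.51 SE, adjusted p = 7.29e-06). The libraries of the lines did not overlap for either factor, as for 60.9% of all tested genes (31.9% with YUMM2.1 higher and 29% with CT26 higher). The melanocyte and glial proteins made by the same lineage followed. S100b, the calcium-binding protein used to diagnose melanoma, read 82.3, 53.8 and 86.6 CPM against 0.785, 1.35 and 1.95 CPM in CT26. The cadherin gene Cdh19 and the adhesion molecule gene Mcam averaged 27.1 ± 3.26 and 39.4 ± 8.61 CPM (SD, n = 3) in YUMM2.1 with 0 counts in CT26.

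The pigment genes were at or near 0 in both lines. Tyr, the enzyme that starts melanin synthesis, and Mlana, a melanosome antigen, had 0 counts in all 6 libraries. Tyrp1 had 0 counts in YUMM2.1 and 1 in CT26. Pmel, the melanosome fibril protein, had 4 counts in YUMM2.1 and 1 in CT26, and Dct, another pigment enzyme, had 11 and 10. Mitf itself had 3 counts in YUMM2.1 and 8 in CT26, too few to test. Of the markers of a melanocytic cell, Sox10 and S100b were thus present and the defining pigment genes had few or no counts. Mc1r, the melanocortin receptor of melanocytes, read 27.3, 26.9 and 24.3 CPM in YUMM2.1 beside 27.5, 28.4 and 24.6 CPM in CT26 and was not called (log2 fold change -0.04 ± 0.22 SE, adjusted p = 0.901), and it overlaps Gm20388 on the same strand. Gpnmb, a lysosomal and melanosomal glycoprotein, was the member of the melanosome group with the most counts in YUMM2.1: it read 64.2, 52.7 and 66.5 CPM there and 19.6, 17.6 and 14.9 CPM in CT26 (log2 fold change 1.84 ± 0.21 SE, adjusted p = 2.64e-07). The melanosomal exchanger gene Slc24a5 was also called but overlaps Myef2 on the opposite strand, and Tfap2a lost its call without CT26 replicate 1 or 3 (log2 fold changes of 1.06 and 0.997) or YUMM2.1 replicate 1 (0.97).

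The promoters of the 3 pigment enzymes are shown because each holds the E-box hexamer CATGTG, the site that Mitf binds in pigment genes. Capitals mark CATGTG or its reverse complement CACATG in the 300 bases from 250 before to 50 after the start of transcription (RefSeq, GRCm38.p6). Tyr is at chr7:87493463-87493762 on the minus strand, Tyrp1 at chr4:80833963-80834262 on the plus strand and Dct at chr14:118052197-118052496 on the minus strand.
Tyr: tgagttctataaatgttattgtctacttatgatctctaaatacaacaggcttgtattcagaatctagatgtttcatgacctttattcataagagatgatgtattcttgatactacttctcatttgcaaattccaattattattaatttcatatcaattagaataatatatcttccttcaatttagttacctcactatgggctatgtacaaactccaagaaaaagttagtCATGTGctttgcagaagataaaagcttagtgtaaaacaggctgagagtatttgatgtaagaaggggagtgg
Tyrp1: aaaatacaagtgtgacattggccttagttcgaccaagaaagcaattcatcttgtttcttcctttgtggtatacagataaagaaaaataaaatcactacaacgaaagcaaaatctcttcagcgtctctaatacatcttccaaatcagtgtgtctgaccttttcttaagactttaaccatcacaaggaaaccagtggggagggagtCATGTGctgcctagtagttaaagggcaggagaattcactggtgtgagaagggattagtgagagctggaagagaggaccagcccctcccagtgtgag
Dct: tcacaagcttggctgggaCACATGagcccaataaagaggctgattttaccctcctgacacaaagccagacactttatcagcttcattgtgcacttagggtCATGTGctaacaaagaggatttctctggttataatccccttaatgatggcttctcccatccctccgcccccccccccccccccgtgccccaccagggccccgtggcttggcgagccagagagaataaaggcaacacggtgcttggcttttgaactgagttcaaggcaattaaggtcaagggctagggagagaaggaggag
Of the 23 promoters found for 17 of the 26 melanocyte genes, 8 held CATGTG (34.8%), beside 14.2% of all 32851 promoters of this length. The related hexamer CACGTG was in 2 of the 23 (8.7%, beside 7.15% of all). Of the melanocyte genes called between the lines, 1 of the 6 promoters found held CATGTG (16.7%). Both strands were searched, and a match is a description of the letters only.

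Receptors of the neural crest were a further mark of YUMM2.1. In the list of 16 neural crest and dedifferentiated melanoma genes, 4 were called higher in YUMM2.1 and 0 higher in CT26. Ngfr, the low-affinity nerve growth factor receptor that marks neural crest-like melanoma cells (chr11:95568818-95587735, minus strand), read 79.3, 57.1 and 66.5 CPM in YUMM2.1 and had 0 counts in CT26, at least 101-fold higher (adjusted p = 5.22e-11). Erbb3, the neuregulin receptor, averaged 16.98 ± 3.03 CPM and Ncam1, a neural adhesion molecule, 46.7 ± 4.66 CPM (SD, n = 3), again with 0 counts in CT26. Nes, the intermediate filament of neural stem cells, was present in both lines at 78.8, 102 and 74.2 CPM and 7.85, 11.5 and 7.78 CPM (9.15-fold, adjusted p = 3.58e-10). No other member was called in the 6 libraries. Axl, a receptor kinase of dedifferentiated melanoma, read 101 CPM in YUMM2.1 beside 102 CPM in CT26 (log2 fold change -0.03 ± 0.17 SE), and Sox2 read 8.48 and 5.81 CPM. Foxd3, Tfap2b and L1cam had 15, 19 and 30 counts in YUMM2.1 and 0, 0 and 4 in CT26. They leaned the same way as the 4 called genes but could not be tested in the 6 libraries. In a fit of all 90 libraries of the series, Foxd3 and L1cam were called higher in YUMM2.1 in 15 of 15 conditions. Msx1 and Sox9, also too low to test, went the other way. Their libraries were apart with CT26 higher in 8 and 3 of the 15 conditions and with YUMM2.1 higher in 0.

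**Figure D2:**
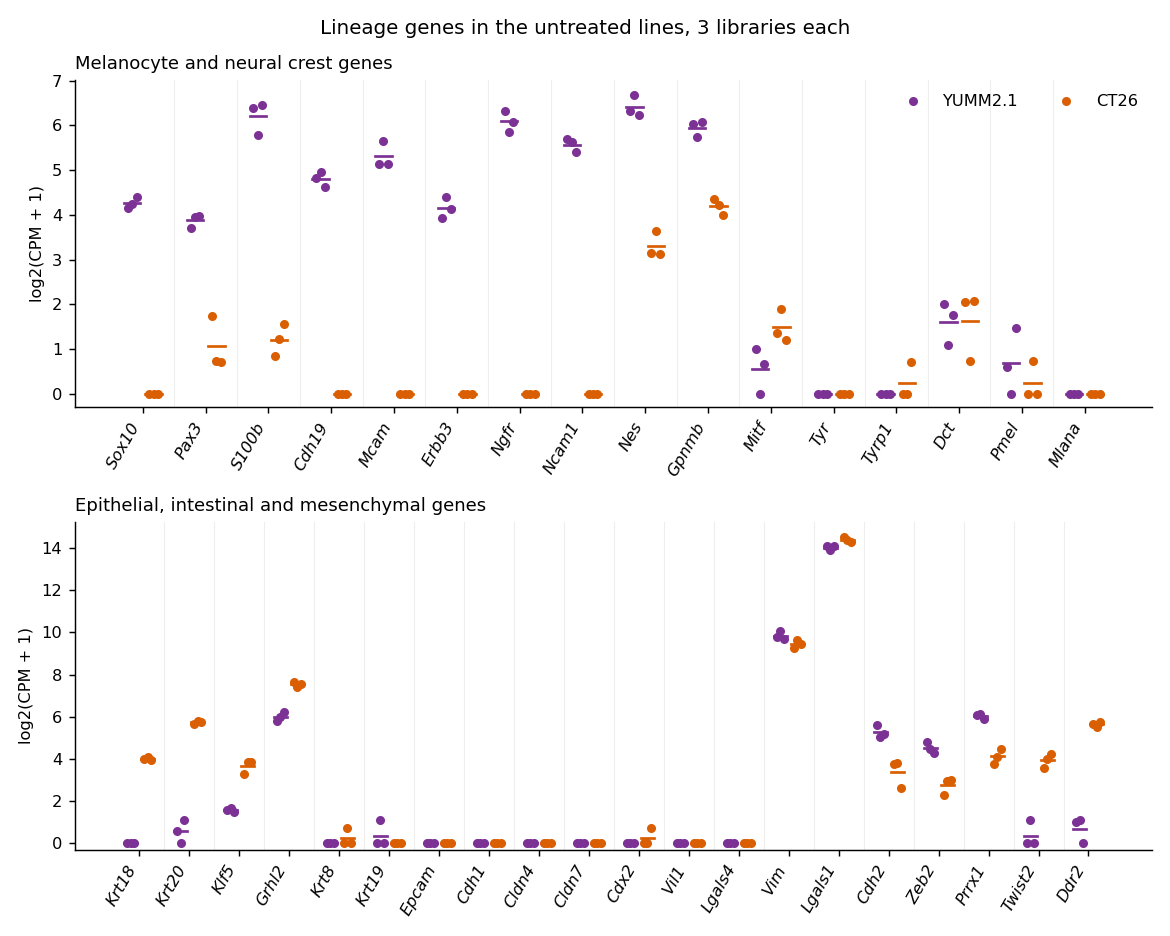
Log2(CPM + 1) of lineage genes in each of the 3 YUMM2.1 (purple) and 3 CT26 (orange) libraries, with a bar at the mean of the 3 points. Sox10, Cdh19, Mcam, Erbb3, Ngfr and Ncam1 are at 0 in every CT26 library, Krt18 is at 0 in every YUMM2.1 library, and Tyr, Mlana, Epcam, Cdh1, Vil1 and Lgals4 are at 0 in both lines.

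CT26 kept a few epithelial genes without the epithelial adhesion programme. Of 35 epithelial genes, 4 were called higher in CT26 and 0 higher in YUMM2.1, and the other 31 had too few counts to test. Krt18, a simple epithelial keratin, read 14.9, 16.2 and 14.27 CPM in CT26 and had 0 counts in YUMM2.1, at least 22.98-fold above YUMM2.1 (adjusted p = 2.90e-07), and Krt20, a keratin of the intestinal surface, read 50.2, 54.1 and 52.5 CPM against 3 counts in YUMM2.1 (ratio 79.6, 95% counting interval 26.9 to 389). For both keratins every CT26 library lay above every YUMM2.1 library. Klf5, a factor of proliferating gut epithelium, read 8.63, 13.5 and 13.6 CPM in CT26 and 2.02, 2.24 and 1.78 CPM in YUMM2.1 (5.88-fold, adjusted p = 6.69e-05), and Grhl2, an activator of epithelial junction genes, 198, 170.3 and 187 CPM and 55.1, 61.6 and 74.8 CPM (2.900-fold, adjusted p = 1.04e-08). Against these, Krt8, the usual partner of Krt18, had 1 count in CT26 and Krt19 had 0. Of 14 adhesion and junction genes, 13 had between 0 and 4 counts in each line, Epcam, Cdh1, Cldn3, Cldn4 and Cldn7 at 0 in both; the 14th, Jup, which also serves adherens junctions outside epithelia, had 18 counts in YUMM2.1 and 13 in CT26.

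No intestinal gene could be tested. Among the 28 listed, 19 had 0 counts in all 6 libraries, including the enterocyte genes Vil1, Lgals4, Fabp1 and Fabp2 and the goblet genes Muc2 and Tff3. Cdx2, the master factor of intestinal identity, had 0 counts in YUMM2.1 and 1 in CT26. The 28 genes summed to 53 counts in YUMM2.1 and 51 in CT26. Cdh17, an intestinal cadherin, had 18 of these in YUMM2.1 and 1 in CT26. Against the label of a colon line, the defining intestinal and junction markers were thus at or near 0, and Krt18, Krt20, Klf5 and Grhl2 were the only called genes of both lists.

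Promoters of Epcam and of the keratin pair are shown because they hold the E-box CACCTG, the site of the Snail and Zeb repressors, in a gene at 0 in both lines and in a pair that differed in CT26. Capitals mark CACCTG or CAGGTG and, in Epcam, 1 CACGTG (RefSeq, GRCm38.p6, plus strand at chr17:87635729-87636028 for Epcam, plus strand at chr15:102027966-102028265 for Krt18 and minus strand at chr15:102004293-102004592 for Krt8).
Epcam: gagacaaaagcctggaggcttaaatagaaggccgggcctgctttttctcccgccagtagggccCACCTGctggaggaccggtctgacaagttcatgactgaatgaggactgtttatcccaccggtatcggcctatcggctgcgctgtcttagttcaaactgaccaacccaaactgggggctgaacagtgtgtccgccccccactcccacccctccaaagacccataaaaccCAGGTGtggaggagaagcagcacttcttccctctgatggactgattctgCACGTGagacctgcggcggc
Krt18: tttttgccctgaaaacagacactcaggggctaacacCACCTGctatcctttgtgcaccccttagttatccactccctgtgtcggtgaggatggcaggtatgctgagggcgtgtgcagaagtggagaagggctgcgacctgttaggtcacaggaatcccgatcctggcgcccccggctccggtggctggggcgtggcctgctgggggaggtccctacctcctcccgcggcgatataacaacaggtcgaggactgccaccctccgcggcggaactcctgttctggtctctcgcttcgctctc
Krt8: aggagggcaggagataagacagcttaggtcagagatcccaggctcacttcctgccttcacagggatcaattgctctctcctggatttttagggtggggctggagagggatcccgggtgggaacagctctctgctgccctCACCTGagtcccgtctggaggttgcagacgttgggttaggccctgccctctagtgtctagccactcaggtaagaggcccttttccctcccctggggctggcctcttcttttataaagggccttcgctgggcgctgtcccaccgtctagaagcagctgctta
Of the 26 promoters found for 22 of the 35 epithelial genes, 17 held CACCTG on either strand (65.4%), beside 20.2% of all promoters, 40% of 20 intestinal, 13% of 23 melanocyte and 9.09% of 22 mesenchymal promoters. Krt18 and Krt8 each held 1 such site, and in CT26 they had 65 counts and 1 count. Of the epithelial genes called between the lines, 1 of the 2 promoters found held CACCTG (50%). A match is a description of the letters only, and repressor binding was not tested.

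Both lines expressed mesenchymal genes, with different transcription factors called in each. Of 31 mesenchymal genes, 4 were called higher in YUMM2.1 and 2 higher in CT26, with 10 tested and not called, and the median log2 fold change of the 16 tested was 0.212 beside 0.0245 for all genes. Vim, the mesenchymal intermediate filament, read 882, 1059 and 829.6 CPM in YUMM2.1 beside 615, 806 and 701 CPM in CT26, 1.301-fold apart and under the 2-fold limit. Lgals1, S100a4 and S100a6 were likewise within 2-fold, with Lgals1 at 16643 and 21417 CPM. Among the factors that repress epithelial genes, Zeb2 averaged 22.2 ± 4.25 CPM in YUMM2.1 beside 5.94 ± 1.76 CPM in CT26 (adjusted p = 7.49e-05), while Zeb1 at 6.65 and 9.04 CPM was not called. Prrx1 was also higher in YUMM2.1, at 66.2, 68.3 and 58.7 CPM against 12.6, 16.2 and 21.4 CPM (3.78-fold, adjusted p = 2.32e-07). Twist2 was on the CT26 side, with 10.98, 14.9 and 17.5 CPM against 1 count in YUMM2.1, and Twist1 had 8 counts in YUMM2.1 and 40 in CT26. N-cadherin (Cdh2) read 46.98, 31.4 and 35.6 CPM in YUMM2.1 beside 12.6, 12.8 and 5.19 CPM in CT26 (3.84-fold, adjusted p = 1.20e-05). Ddr2, a receptor kinase for fibrillar collagen, showed the reverse, at 49.4, 43.9 and 53.2 CPM in CT26 against 3 counts in YUMM2.1. The myosin light chain gene Myl9 averaged 44.7 ± 2.21 CPM in YUMM2.1 and had 0 counts in CT26.

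Matrix genes divided between the lines, with more on the YUMM2.1 side. Of 86 matrix genes, 26 were called higher in YUMM2.1 and 8 higher in CT26, 17 were tested and not called, and 35 were not tested. The median log2 fold change of the 51 tested was 1.29, and it was 1.52 with library totals as scaling. Collagen chains differed by type. Col5a2, a chain of the fibril-nucleating collagen V (chr1:45374321-45503282, minus strand), read 135, 129.96 and 99.7 CPM in YUMM2.1 and had 0 counts in CT26, at least 174-fold higher (adjusted p = 1.63e-12). Col3a1 averaged 57.3 ± 5.53 CPM against 10.9 ± 4.35 CPM, and Col18a1 and Col6a1, outside the fibrillar group, averaged 93.7 and 15.8 CPM against 3.61 and 0.441 CPM. Col1a2, a chain of collagen I, went the other way, with 7.58, 10.1 and 6.53 CPM in YUMM2.1 beside 94.9, 152 and 106 CPM in CT26 (15.1-fold, adjusted p = 3.31e-11). Its partner Col1a1 had 0 counts in YUMM2.1 and 21 in CT26, too few to test. Enzymes of collagen folding and linking also split: Serpinh1, the collagen chaperone, averaged 160.1 ± 12.7 CPM in YUMM2.1 beside 35.1 ± 2.44 CPM in CT26, whereas Loxl2, which cross-links collagen, averaged 179.6 ± 16.4 and 618 ± 61.6 CPM and Fkbp10, a collagen prolyl isomerase, 6.53 ± 1.89 and 44.5 ± 6.14 CPM. Pcolce, which helps to cut procollagen, read 16.4-fold higher in CT26 than in YUMM2.1 (adjusted p = 5.78e-16) but shares its locus with Fbxo24 on the same strand.

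Of 23 glycoprotein and proteoglycan genes, 7 were called higher in YUMM2.1 and 2 higher in CT26. That is 64.3% of the 14 with enough counts to test, beside 33% of all tested genes. Fn1, fibronectin, read 999, 895 and 911 CPM in CT26 and 139.9, 159 and 153 CPM in YUMM2.1 (6.23-fold, log2 fold change -2.64 ± 0.11 SE, adjusted p = 5.43e-14). Sparc, a collagen-binding matricellular protein, read 749, 604 and 747 CPM in YUMM2.1 beside 100.4, 111 and 112 CPM in CT26 (6.51-fold, adjusted p = 1.50e-13). Postn, periostin, read 61.6, 54.9 and 60.5 CPM in YUMM2.1 and had 0 counts in CT26, at least 85.8-fold higher. In basement membrane the laminin chain Lama4 averaged 30.04 ± 2.94 CPM in YUMM2.1 against 0 counts in CT26, and Col4a1 averaged 37.98 ± 9.29 CPM against 11.3 ± 3.85 CPM, while Lamb1 and Lamc1 were not called. Spp1, osteopontin, was high and close in both lines, at 5442, 4903 and 5475 CPM in YUMM2.1 beside 6227, 5409 and 5409 CPM in CT26 (log2 fold change -0.11 ± 0.11 SE).

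Calls among proteases and their inhibitors were mostly on the YUMM2.1 side, with 8 of 18 called higher there and 1 higher in CT26. That is 69.2% of the 13 with enough counts to test, beside 33% of all tested genes. Plat, the tissue plasminogen activator, read 106, 134 and 105 CPM in YUMM2.1 beside 1.57, 0.676 and 0.649 CPM in CT26 (112-fold, adjusted p = 3.53e-13). Its inhibitor Serpine2 averaged 83.4 ± 7.93 CPM in YUMM2.1 with 0 counts in CT26. Mmp10, a stromelysin, averaged 81.1 ± 4.23 CPM against 1.36 ± 0.581 CPM, and Mmp2, Timp3 and Adam19 had 63, 98 and 116 counts in YUMM2.1 against 0 in CT26. Plaur, the receptor of urokinase, was the CT26 member, at 185, 132 and 144 CPM against 65.2, 75.1 and 61.7 CPM in YUMM2.1 (2.301-fold, adjusted p = 8.85e-07), a call lost with library totals as scaling. The membrane protease Mmp14 read 80.95 and 85.1 CPM and was not called.

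Integrins, the receptors for these proteins, showed a similar imbalance: 5 of 18 were called higher in YUMM2.1 and 1 higher in CT26. The α chains Itga4 and Itga1 read 33.3, 40.3 and 28.5 and 23.2, 25.8 and 23.1 CPM in YUMM2.1 against 2 counts each in CT26, and Itga8 averaged 15.2 ± 4.58 CPM against 0 counts. Itga6, a laminin receptor chain, was expressed in both lines and was 2.62-fold higher in YUMM2.1 (adjusted p = 6.00e-06). Itgb7, the β chain that pairs with Itga4 on gut-homing lymphocytes, was the CT26 gene, with 18.04, 14.2 and 12.97 CPM against 0 counts in YUMM2.1. Itgb1, the common β chain, averaged 104 ± 17.6 and 57.6 ± 8.06 CPM and stayed under 2-fold.

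**Figure D3:**
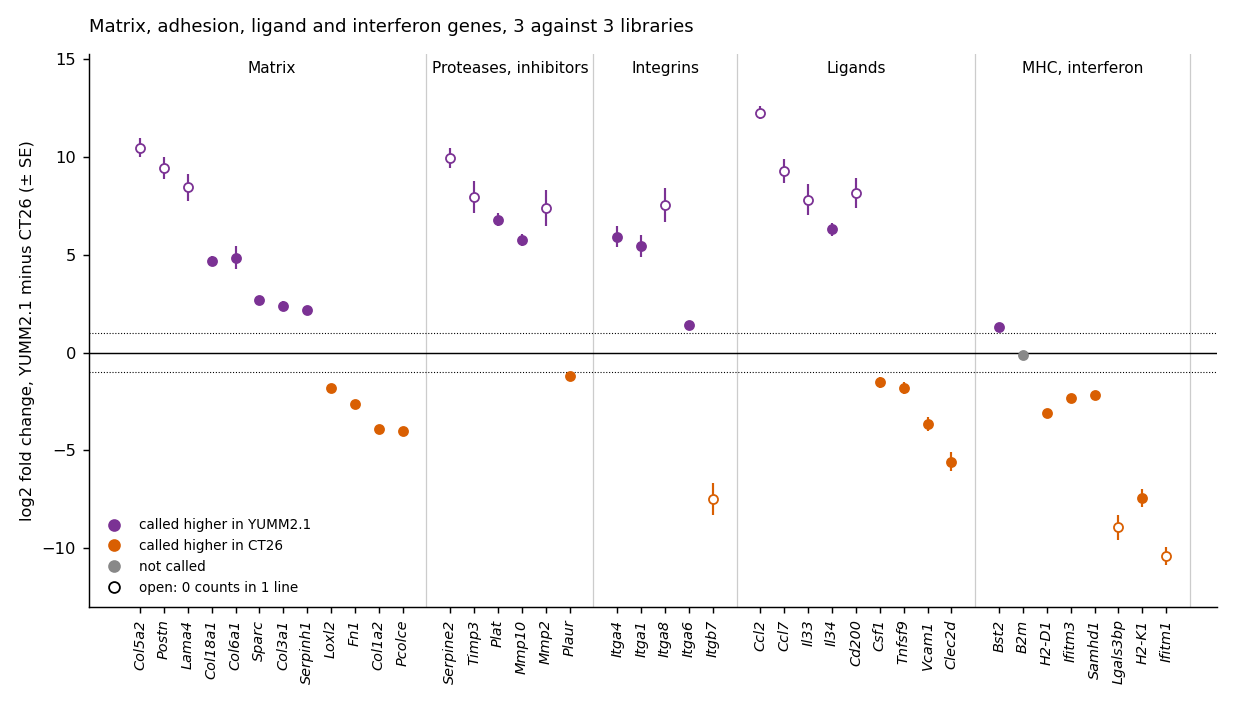
Log2 fold change (YUMM2.1 minus CT26, ± SE of the edgeR fit, n = 3 against 3) of genes named in the text; open circles mark genes with 0 counts in one line, whose fitted value depends on the prior count and is not a bound. Col5a2, Postn, Serpine2 and Ccl2 lie far above 0, Fn1, Col1a2, H2-K1 and Ifitm1 far below, and B2m lies near 0. Dotted lines mark 2-fold.

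Both classical MHC class I heavy chains were lower in YUMM2.1, and their partner B2m was not called. Of 32 antigen presentation genes, 6 were called higher in CT26 and 0 higher in YUMM2.1, and 1, H2-L, was not found by its symbol. H2-K1, a classical heavy chain (chr17:33996017-34000347, minus strand), had 1 count over the 3 YUMM2.1 libraries and read 49.4, 54.7 and 53.2 CPM in CT26 (ratio 239.7, counting interval 42.6 to 9510, adjusted p = 4.21e-11). H2-D1, the other classical heavy chain, read 19.2, 33.6 and 18.99 CPM in YUMM2.1 beside 173, 208 and 187 CPM in CT26 (8.44-fold, log2 fold change -3.08 ± 0.18 SE, adjusted p = 1.13e-11). B2m read 796, 560.2 and 809 CPM in YUMM2.1 beside 833, 789.9 and 778 CPM in CT26, and its libraries overlapped (log2 fold change -0.14 ± 0.12 SE, adjusted p = 0.3404). The reference was mm10, which carries the C57BL/6 alleles of YUMM2.1, while CT26 carries those of BALB/c, and 24.4% of the 31-base words in the last 500 bases of H2-K1 and 27.2% of those of H2-D1 occurred in transcripts of other genes. The part of allele and copy differences in these values was not tested. H2-T23, a non-classical chain, was 2.12-fold above YUMM2.1 (adjusted p = 4.70e-08), but 66% of its words were shared, some of them with Rab33b at 102 and 1167 CPM, and the call was lost without YUMM2.1 replicate 1 (log2 fold change of -0.99) and with library totals as scaling (-0.85), so its value is uncertain.

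Of 13 peptide supply and loading genes, 4 had 0 to 4 counts in YUMM2.1 and 0 did in CT26. Tapbp, tapasin, averaged 4.41 ± 2.02 CPM in YUMM2.1 beside 17.03 ± 3.28 CPM in CT26 (4.204-fold, adjusted p = 0.000135), and Psme1, a proteasome activator subunit, 28.4 ± 1.76 and 74.7 ± 7.28 CPM. The peptide transporter genes Tap1 and Tap2 had 2 and 0 counts in YUMM2.1 and 12 and 32 in CT26, and the immunoproteasome genes Psmb8 and Psmb9 had 1 and 4 counts against 19 and 16. The endoplasmic reticulum chaperones Calr, Canx and Pdia3, which fold secreted proteins in general, differed by less than 2-fold. All 7 class II and regulator genes had between 0 and 3 counts in either line, Ciita and Nlrc5 among them.

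The interferon pathway list held 63 genes, of which 12 were called higher in CT26 and 2 higher in YUMM2.1. Its median log2 fold change over the 33 tested was -0.213 beside 0.0245 for all genes, and it turned to 0.0214 with library totals as scaling, where all genes stood at 0.256. Among the central factors, Irf1 averaged 8.01 and 7.99 CPM and was not called, and Jak1, Ifnar1, Stat3, Irf2 and Irf3 differed by less than 2-fold. Ifngr1, the ligand-binding chain of the IFNγ receptor, read 26.8, 15.7 and 24.3 CPM in YUMM2.1 beside 7.06, 13.5 and 13.6 CPM in CT26, 1.99-fold higher in YUMM2.1 and just under the 2-fold limit (adjusted p = 0.00892), and it passed the limit in 6 of 13 alternative fits, those without CT26 replicate 2 or 3 or YUMM2.1 replicate 2 among them (log2 fold changes of 1.08, 1.10 and 1.145). Tyk2, a kinase of the type I interferon receptor, read 91.00, 72.98 and 68.7 CPM in CT26 and 28.3, 19.05 and 17.2 CPM in YUMM2.1 (3.49-fold, adjusted p = 3.28e-07). Irf9, the DNA-binding part of the type I interferon complex, was 2.31-fold above YUMM2.1 (adjusted p = 1.14e-07) but shares its locus with Rnf31 on the same strand and fell just under 2-fold with library totals as scaling (log2 fold change of -0.98).

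Among 38 interferon target genes, 9 were called higher in CT26 and 1 higher in YUMM2.1. Only 17 of the 38 had enough counts to test, and 58.8% of the 17 were called, beside 33% of all tested genes. Ifitm1, which blocks virus entry (26.6% of its words shared with other genes), read 117, 105 and 122 CPM in CT26 and had 0 counts in YUMM2.1, at least 174-fold above YUMM2.1 (adjusted p = 7.47e-13). Ifitm3 (28.3% of its words shared) read 812, 735 and 723 CPM against 153, 142 and 161 CPM in YUMM2.1 (4.94-fold, adjusted p = 4.00e-13), while the neighbouring Ifitm2 read 447 and 385 CPM and was not called. The antiviral synthetase gene Oas1a, the related Oasl1 and the secreted lectin ligand gene Lgals3bp averaged 31.6, 44.1 and 41.7 CPM in CT26 and had 0, 4 and 0 counts in YUMM2.1, although Oas1a shares 70% of its words with Oas1g. Samhd1, a dNTP hydrolase, was high in both, at 1713, 1609 and 1709.5 CPM in CT26 and 364, 382 and 390.5 CPM in YUMM2.1 (4.43-fold, adjusted p = 5.24e-13), and the ISG15-conjugating enzyme gene Ube2l6 averaged 69.9 ± 13.2 and 8.52 ± 2.303 CPM. Bst2, tetherin, was the target called higher in YUMM2.1 in the 6 libraries, at 56.6, 53.8 and 53.4 CPM against 21.2, 21.6 and 22.1 CPM (2.52-fold, adjusted p = 7.20e-06). Over all 90 libraries, Uba7 and Ifit3 were called higher in YUMM2.1 in 12 and 11 of 15 conditions and higher in CT26 in 0 and 2. In the same fit Ifitm1, Ifitm3 and Samhd1 were called higher in CT26 in 15. Several targets known for their response to IFNγ had few counts before treatment: Gbp2, Gbp7 and Irgm2 had 22, 19 and 7 counts in YUMM2.1 and 21, 19 and 7 in CT26, and Cxcl10 had 6 and 7. Among the inhibitors of the pathway, Usp18, which removes ISG15, had 0 counts in YUMM2.1 and 33 in CT26, and Socs1 had 24 and 7, both too few to test in the 6 libraries. In the fit of all 90 libraries, Usp18 was called higher in CT26 in 15 of 15 conditions and Socs1 higher in YUMM2.1 in 10. Ptpn11 and Ptpn6, phosphatases of the pathway, were called higher in CT26 and in YUMM2.1, and the Ptpn11 call at 2.01-fold was lost in 8 of 13 alternatives, including those without CT26 replicate 3 or YUMM2.1 replicates 2 or 3 (log2 fold changes of -0.76, -0.88 and -0.98) and that with a replicate block (-0.998).

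Immune ligands split by family. Of 72 genes, 8 were called higher in YUMM2.1 and 5 higher in CT26. Ccl2, the chemokine that draws monocytes (chr11:82035571-82037453, plus strand), read 456, 364 and 430.2 CPM in YUMM2.1 and had 0 counts in CT26, at least 613-fold higher (adjusted p = 1.50e-15). Its neighbour Ccl7 read 44.96, 47.1 and 65.3 CPM and also had 0 counts in CT26. Of 19 chemokine genes only 3 had enough counts to test, and no other was called. Ccl5 had 38 counts in YUMM2.1 and 8 in CT26, and Cxcl9, Cxcl12 and Cxcl16 had 0 in both lines. In the fit of all 90 libraries, Ccl5, Cxcl11 and Cxcl10 were called higher in YUMM2.1 in 14, 12 and 7 of 15 conditions and higher in CT26 in 0. Among cytokines, Il34, a ligand of the macrophage receptor Csf1r, read 81.8, 70.6 and 85.5 CPM in YUMM2.1 beside 0.785, 0.676 and 1.297 CPM in CT26 (78.8-fold, adjusted p = 2.19e-12). Csf1, the other ligand of that receptor, was on the CT26 side, at 24.3, 40.5 and 27.2 CPM against 10.1, 14.6 and 8.901 CPM (2.88-fold, adjusted p = 0.0001497). Il33, an alarmin, averaged 18.8 ± 3.02 CPM in YUMM2.1 with 0 counts in CT26. Tgfb1 and the macrophage factor gene Mif were not called, with Mif at 1957 CPM in YUMM2.1 beside 1812 CPM in CT26.

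The genes of the PD-1 ligands, Cd274 and Pdcd1lg2, were scarce before IFNγ. Of 18 checkpoint and costimulatory ligand genes, 4 averaged at least 10 CPM in YUMM2.1 and 4 in CT26. Cd274, PD-L1, had 7 counts in YUMM2.1 and 0 in CT26, and Pdcd1lg2 had 0 in both. Cd200, an inhibitory ligand for myeloid cells, read 27.3, 25.8 and 18.99 CPM in YUMM2.1 and had 0 counts in CT26, at least 34.3-fold higher (adjusted p = 4.93e-08). Tnfsf9, the 4-1BB ligand, read 26.7, 23.7 and 21.4 CPM in CT26 and 6.57, 4.48 and 8.31 CPM in YUMM2.1 (3.499-fold, adjusted p = 5.04e-05). The brake on phagocytosis Cd47 and the nectin-like ligand Pvr were not called. Ligands for natural killer cells also differed: Raet1d and Raet1e, ligands of the activating receptor NKG2D, had 112 and 62 counts in YUMM2.1 and 0 in CT26, but 87.7% of the words of Raet1d occur in Raet1e, so the reads can be given only to the pair. Ulbp1, another such ligand, read 24.2 and 22.96 CPM, and H60b had 2 counts in YUMM2.1 and 22 in CT26. Clec2d, a ligand of an inhibitory receptor, read 44.7, 33.1 and 28.5 CPM in CT26 against 3 counts in YUMM2.1. Vcam1, the counter-receptor of Itga4, read 50.99, 33.1 and 36.3 CPM in CT26 and 2.53, 4.48 and 2.97 CPM in YUMM2.1 (12.6-fold, adjusted p = 1.45e-08). The complement regulator Cd59a was higher in YUMM2.1, at 23.7, 24.6 and 26.1 CPM against 3 counts in CT26, and the call of the death receptor Tnfrsf10b towards CT26 was lost without YUMM2.1 replicate 3 (log2 fold change of -1.07).

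The locus of Cdkn2a stood apart in YUMM2.1. Mtap, the methylthioadenosine phosphorylase gene next to Cdkn2a (chr4:89137122-89181081, plus strand), read 43.1, 52.03 and 57.7 CPM in CT26 and had 0 counts in YUMM2.1, at least 78.1-fold lower (adjusted p = 2.39e-10). It had 0 counts in all 45 YUMM2.1 libraries of the series and 2490 counts in the 45 CT26 libraries. Within 1 Mb of Cdkn2a the annotation holds 37 coding genes, with type I interferon genes among them, and all 37 had 0 counts in the 3 YUMM2.1 libraries, while 32 had 0 counts in CT26. Over the 45 YUMM2.1 libraries 35 of the 37 stayed at 0, the exceptions being Dmrta1 and Zfp352 with 12 and 5 counts, whereas Klhl9 and Focad had 226 and 189 counts in CT26. The nearest coding genes with at least 10 counts in YUMM2.1 were Rps6, 2417 kb below, at 2037 CPM, and Caap1, 5205 kb above, with 19 counts in each line. Cdkn2a and Cdkn2b had 0 counts in both lines. A lost and a silent gene cannot be told apart in RNA counts.

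Other genes of the known lesions and their pathways were mostly not called or had too few counts to test. A tag at the 3′ end need not lie in the altered part of an engineered gene, so its count does not check the genotype. Trp53 and Apc were not called, Braf had 12 and 13 counts, and Ctnnb1, the gene of β-catenin, averaged 33.9 ± 8.73 and 21.9 ± 4.14 CPM, under 2-fold. Of 10 Wnt target genes, only 1 had enough counts to test, and it was called. This gene, Ccnd1 (cyclin D1), read 358, 332 and 331 CPM in YUMM2.1 beside 166, 155 and 163 CPM in CT26 (2.12-fold, adjusted p = 2.79e-08). Axin2, the usual readout of β-catenin signalling, had 1 and 2 counts. Of 17 MAPK feedback and target genes, 10 had enough counts to test. Calls went to YUMM2.1 for 4 and to CT26 for 1, or 50% of those tested beside 33% of all tested genes. Dusp6, the ERK phosphatase, read 116, 103 and 116 CPM against 26.7, 25.00 and 33.1 CPM (3.95-fold, adjusted p = 2.94e-09) and Hbegf, an EGF receptor ligand, averaged 58.9 ± 10.4 against 21.3 ± 2.81 CPM. Ereg, another EGF receptor ligand, averaged 17.8 ± 4.403 CPM in CT26 and 2.93 ± 1.395 CPM in YUMM2.1. Fosl1, Egr1, Dusp4 and Etv5 were not called, and the Spred1 call was lost without CT26 replicates 1 or 3 or YUMM2.1 replicate 1 (log2 fold changes of 1.06, 1.13 and 1.17).

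Position, sex and other cell types were read from small lists. The Y-linked genes Eif2s3y and Ddx3y read 20.2, 26.9 and 17.2 and 21.2, 15.7 and 18.4 CPM in YUMM2.1 and had 0 and 1 counts in CT26, and Xist had 0 counts in both. Hoxb7 averaged 39.3 ± 6.96 CPM in YUMM2.1 with 0 counts in CT26, and Hoxa7 had 60 and 6 counts. The call of Hoxa10 towards CT26 was lost without CT26 replicates 2 or 3 or YUMM2.1 replicates 1 or 2 (log2 fold changes of -1.26, -1.35, -1.16 and -1.04). Of 25 markers of leukocytes, endothelium, red cells, neurons and glia, 24 were too low to test, with 0 to 18 counts in a line. The summed level of the list was 293 to 344 CPM in YUMM2.1 beside 317 to 319 CPM in CT26, nearly all of it from Pecam1 at 312 and 312 CPM, while the other endothelial genes Cdh5, Kdr, Tie1 and Tek had 0 or 1 count.

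Genes were also ranked over the whole table by the ratio of their mean CPM, with the lower line set to at least its floor of 3 counts, keeping called coding genes whose libraries did not overlap. The 12 that led in YUMM2.1 were Prl2c2, Arl6ip1, Ccl2, Trf, Rassf4, Fxyd3, Lbh, Nrcam, Fabp5, Gpm6b, Anxa6 and H2afj. Fxyd3, a regulator of the sodium pump, read 283, 226 and 305 CPM, and Nrcam and Gpm6b, neural adhesion and membrane proteins, read 167, 211 and 192 and 181, 165 and 166 CPM. Trf, transferrin, read 281, 305 and 261 CPM, and the fatty acid carrier gene Fabp5 read 205, 131 and 199.99 CPM. These 5 had 0 or 1 count in CT26. Rassf4 and Lbh averaged 275 and 252 CPM with 0 counts in CT26. Arl6ip1, a membrane-shaping protein of the endoplasmic reticulum, read 470.3, 371 and 456 CPM in YUMM2.1 and had 2 counts in CT26 and 14 over its other 42 libraries. Prl2c2, a prolactin family gene, shares 91.8% of its words with other genes, chiefly Prl2c3, at 137 CPM in YUMM2.1 beside 0.667 CPM in CT26, so the source of its reads is uncertain; both genes read higher in YUMM2.1. Trf shares 76% of its words with other genes and is uncertain too, and Fxyd3, Rassf4 and Ccl2 overlap Lgi4, Depp1 and Gm17268 on the opposite strand, where the use of strand in the counting is not given.

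The 12 that led in CT26 were Ly6e, Rpl39l, Cd34, Hmga1b, 2200002D01Rik, Baiap2l1, Cldn6, AC117239.2, Ifitm1, Pla2g7, Olfr1388 and Eno1b. Ly6e, an interferon-responsive surface protein outside the list above, read 857, 839.9 and 889.8 CPM in CT26 and had 1 count in YUMM2.1. Cd34, a sialomucin of progenitor and endothelial cells, read 434, 370.3 and 387 CPM in CT26 and also had 1 count in YUMM2.1. Cldn6, a claudin of early embryonic epithelium, read 122, 124 and 132 CPM in CT26 against 0 counts, in contrast to the claudins of the epithelial list at 0 in both lines. Pla2g7, a phospholipase, averaged 113 ± 6.41 CPM with 0 counts in YUMM2.1. For 4 of the 12, copies elsewhere in the genome make the source of the reads uncertain: Hmga1b shares 90.2% of its words with Hmga1 (301 CPM in YUMM2.1 beside 238 CPM in CT26), Eno1b 79.3% with Eno1 (1703 and 3954 CPM), AC117239.2 67.9% with Hspe1 (767 and 1082 CPM) and Olfr1388 39.7% with Gm43041 (0 and 87.4 CPM).

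The differences were then followed through the other 14 conditions of each line, which used other libraries. Of the 1330 genes called higher in YUMM2.1 at 0 weeks, 71.7% to 85.2% were called the same way in each other condition and 0 the opposite way, and of the 1178 higher in CT26, 67.8% to 75.8% were, with at most 2 the opposite way. The share of all 10339 genes called in a condition was 31.6% at 0 weeks without IFNγ, 32.6% and 31.5% after 2 and 24 h of IFNγ, 34.3%, 32.3% and 33.8% in control culture at 1, 2 and 3 weeks, 30.2%, 32.2% and 29.5% after 1 week in IFNγ with 0, 2 and 24 h of rechallenge, 32.4%, 34.4% and 32% after 2 weeks and 28.9%, 29.8% and 30.8% after 3 weeks. Among listed genes, 55 of the 66 higher in YUMM2.1 and 24 of the 42 higher in CT26 were called the same way in all 15 conditions, beside 51.1% and 45.2% of all genes called higher in YUMM2.1 and in CT26 at 0 weeks. Of the 42, 1 was called the opposite way in at least 1 condition. Sox10 stayed between 17.6 and 36.4 CPM (condition means) in YUMM2.1 with 0 counts in all 45 CT26 libraries, and Ngfr, Postn, Cd200, Raet1d, Hoxb7 and Eif2s3y likewise had 0 counts in all 45. The highest condition mean of Mitf in YUMM2.1 was 3.67 CPM, of Dct 3.06 CPM and of Tyr 1.52 CPM, beside 4.07, 5.56 and 1.17 CPM in CT26. The libraries of Mitf, Dct and Tyr were apart with CT26 higher in 3, 5 and 1 of the 15 conditions and with YUMM2.1 higher in 0. Mc1r had condition means from 14.1 to 28.1 CPM in YUMM2.1 beside 26.4 to 47.6 CPM in CT26, with its libraries apart and CT26 higher in 8 conditions, of which 3 were called. At 0 weeks 29% of all tested genes were apart with CT26 higher and 31.9% with YUMM2.1 higher. That share was not counted in the other conditions, so these counts of conditions lack a background over all genes. The highest condition mean of Epcam was 0 in both lines. Krt20 ranged from 42.7 to 113 CPM in CT26 and stayed under 1 CPM in YUMM2.1.

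**Figure D4:**
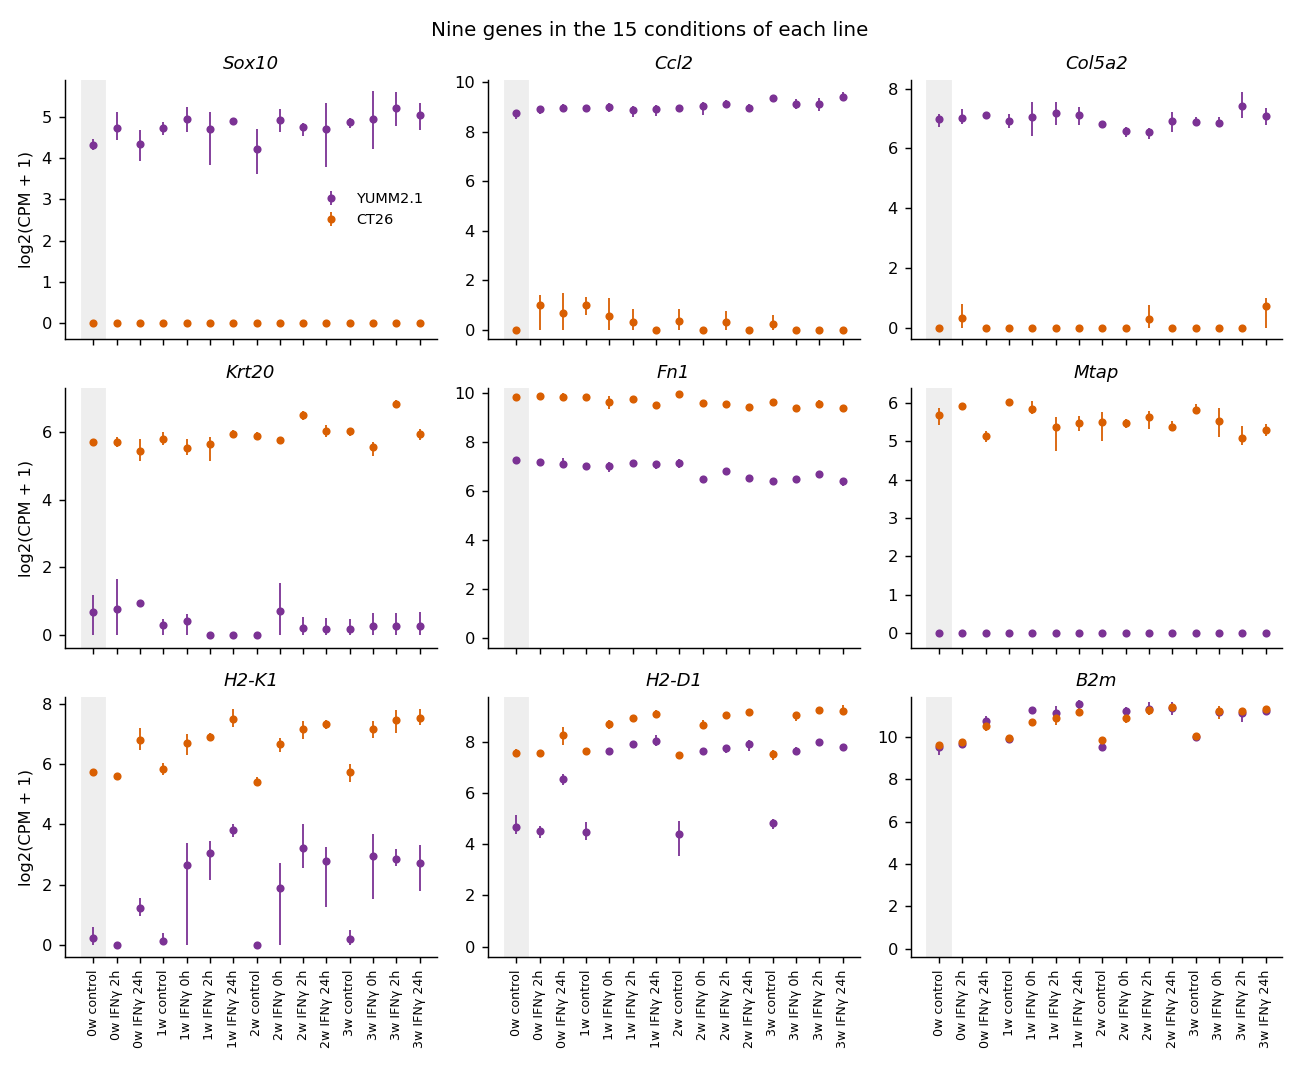
Log2(CPM + 1) of 9 genes in the 15 conditions of each line (weeks of culture, then control or IFNγ with hours of rechallenge); points are means of 3 libraries and bars run from the lowest to the highest library, with the untreated 0-week state shaded. Sox10, Ccl2, Col5a2, Krt20, Fn1 and Mtap keep the lines apart in every condition, H2-K1 and H2-D1 are higher in CT26 in every condition shown, and the condition means of B2m run from 729 to 3000 CPM in YUMM2.1 beside 791 to 2800 CPM in CT26.

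The distance between the lines in H2-D1 changed with IFNγ in the fit of all 90 libraries. H2-D1 rose in YUMM2.1 from 24.6 to 91.2 CPM after 24 h of IFNγ and in CT26 from 187 to 304 CPM (scaled over all 90 libraries), so that the line difference went from a log2 fold change of -3.08 at 0 h in the 6 libraries to -1.74 at 24 h in the fit of all 90. The test of that change gave a log2 difference of 1.27 ± 0.25 SE (adjusted p = 0.00566), and an adjusted p of 0.154 in a fit of the 12 libraries alone. H2-K1 in YUMM2.1 went from 0.174 to 1.32 CPM and reached at most 12.9 CPM in any condition, below the lowest condition mean of 41.2 CPM in CT26, and its libraries were apart in 15 of 15 conditions. The change in the line difference of H2-K1 at 24 h was 1.24 ± 1.27 SE on the log2 scale and did not pass the test (adjusted p = 0.851). Tap1 and Psmb9, with the few counts given above at the start, reached 55.7 and 169 CPM in YUMM2.1 and 48.1 and 193 CPM in CT26. Ifitm1 and Oas1a stayed near 0 in YUMM2.1 through all conditions, with highest means of 0.504 and 1.16 CPM against 288 and 199 CPM in CT26. Over all genes, 9 of 10339 (0.087%) differed in their 24 h response and 19 (0.184%) in their change over 3 weeks of control culture, and 848 and 856 had an unadjusted p below 0.05.

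The median log2 fold change of the tested genes differed between chromosomes. Among the autosomes and X it was lowest on chromosome 15 (-0.64, with 26 of 307 genes called higher in YUMM2.1 and 96 higher in CT26) and chromosome 5 (-0.50), and highest on chromosomes 19 (0.47) and 10 (0.47). Chromosome Y had a median of 0.81 over 5 tested genes and was left out of this order. On chromosome 19, 74 of 266 genes were called higher in YUMM2.1 and 18 higher in CT26. Genes of a chromosome are not independent, and no test was made. Both lineage genes Sox10 and Krt18 lie on chromosome 15.

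**Figure D5:**
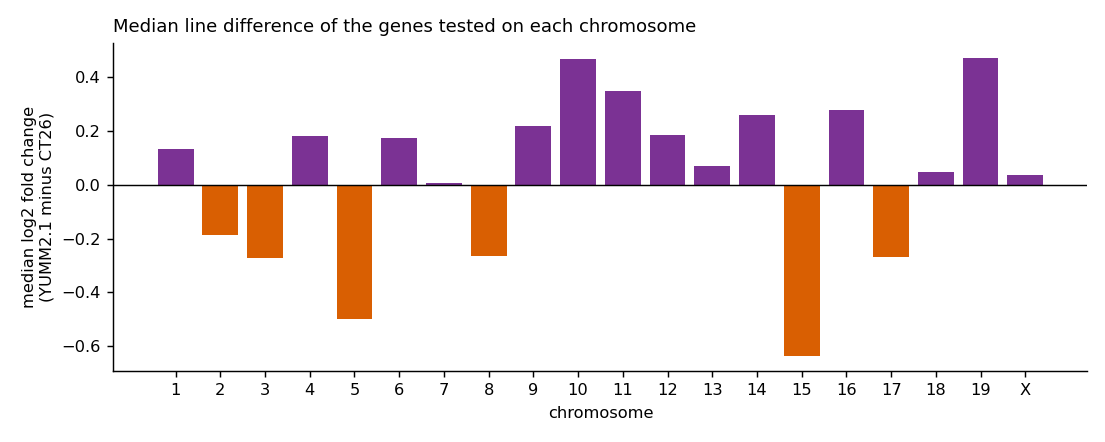
Median log2 fold change (YUMM2.1 minus CT26) of the tested genes on each mouse autosome and X, from the 3 against 3 comparison. Of these, chromosomes 15 and 5 have the lowest medians (-0.64 and -0.50) and chromosomes 19 and 10 the highest (0.47 and 0.47).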

How the data were processed

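RNA from triplicate cultures was measured by 3′ digital gene expression. The authors quantified the reads with Salmon (0.13.1) against mm10, per the labels, and summed transcripts to genes with tximport; use of molecular identifiers and the annotation release are not given in the sources used here. They deposited whole-number counts per gene for all 90 libraries, and no fold changes or p-values were used. The study discarded 1 YUMM2.1 and 4 CT26 samples it did not name; all deposited libraries were used here.

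Counts as deposited were tested with edgeR (4.0.16; R 4.3.3): genes were filtered by filterByExpr (minimum count 10, total 15), scaled by TMM and fitted by quasi-likelihood on the 6 libraries, with 4 residual degrees of freedom and Benjamini-Hochberg adjustment. CPM divides counts by the TMM-scaled library size. The 90-library fit (10339 genes) served the other conditions and the interactions. Genes at 0 in a line were compared with a floor of 3 counts over that line's 3 libraries; for 1 to 3 counts the ratio has an exact binomial 95% counting interval. On simulated counts for 7591 genes, 194 of 200 genes changed 4-fold were recovered with 3 false calls, and 0 calls were made with no gene changed. The simulation changed far fewer genes than the 33% called in the data, with as many up as down. It therefore does not show how the scaling and test behave at that share. Of 53697 gene identifiers, 53668 matched a symbol and 52806 the same version in GENCODE M21 (GRCm38), which gave positions and overlaps. Shared words are 31-base words in the last 500 bases of a gene's transcripts that occur in another gene. For other called genes named above the share was 25.3% (Tnfrsf10b), 23.5% (Psme1), 21.5% (Ube2l6), 16.6% (Loxl2), 15% (H2afj), 11.1% (Samhd1), 10.4% (Krt18) and 8.14% (Tapbp).

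Samples were grouped by their labels. Alternatives were DESeq2 (1.42.0), other scalings, no filter, all libraries, a replicate block, another threshold and leaving out each library. Genes named were those on the lists and the 12 leading genes per direction by ratio of mean CPM (lower line at its floor or above); the exceptions, chosen after their values were seen, were Rps6, Caap1, Klhl9, Focad, Dmrta1 and Zfp352 near Cdkn2a, and the copies of named genes. The comparison and the lists were chosen with earlier results of these data known. The replicate libraries of a line differed by more than counting noise (chi-square of 1.81 to 3.85 per degree of freedom). Some listed genes are counted in the lists but are not reported here by name.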

Additional observations from a re-analysis of the deposited data

Results flagged for a closer look

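For 5 listed genes the difference between the lines changed with treatment or culture time, by the test of that change in the fit of all 90 libraries; 3 of these calls were lost when only the 12 libraries concerned were fitted. H2-D1, an MHC class I heavy chain, rose more in YUMM2.1 than in CT26 after 24 h of IFNγ (log2 difference 1.27, adjusted p = 0.00566, and 0.154 in the 12 libraries). Ifi27, an interferon-induced mitochondrial protein, rose from 63.02 to 189 CPM in YUMM2.1 and read 94.2 and 96.2 CPM in CT26 (log2 difference 1.54, adjusted p = 4.01e-05, and 0.000417 in the 12 libraries). Lgals3bp went from 0 to 8.07 CPM in YUMM2.1 and from 41.2 to 127 CPM in CT26 (log2 difference 4.92, which depends on the prior count because of the 0, adjusted p = 0.0241, and 0.146). Ddx58, the RIG-I sensor, went from 6.61 to 10.1 CPM in YUMM2.1 and from 2.93 to 24.7 CPM in CT26 (log2 difference -2.48, adjusted p = 0.0494, and 0.220 in the 12 libraries). Fn1 differed over 3 weeks of control culture: it fell from 156 to 84.98 CPM in YUMM2.1 and read 924 and 802 CPM in CT26 (log2 difference -0.66, adjusted p = 0.0215, and 0.0118 in the 12 libraries).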

How the results depend on the processing

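Of 2704 values for 208 gene results under 13 alternatives, 2622 kept their side of the threshold, 60 lost the call and 22 gained it. Of the called genes, 0 reversed. A change of sign in a gene that was not called was not counted. The main counts of 1330 genes higher in YUMM2.1 and 1178 higher in CT26 became 1228 and 1136 with DESeq2, 1306 and 1198 with RLE scaling, 1753 and 892 with library totals, 1956 and 1707 without the filter (20077 genes tested), 1852 and 1415 with all 90 libraries, 777 and 674 when the test itself was set at 2-fold (glmTreat), 2185 and 2001 with no minimum fold, and 1324 to 1494 and 1219 to 1306 without 1 library. With library totals the median log2 fold changes of the lists were 4.79 (melanocyte), 3.43 (neural crest), -4.13 (epithelial), 0.444 (mesenchymal), 1.52 (matrix), -0.601 (antigen presentation), 0.0214 (interferon), 0.15 (immune ligands) and 0.366 (drivers), while the median of all genes moved from 0.0245 to 0.256; with all 90 libraries that of antigen presentation was -0.77. Without 1 library the medians ran from 4.38 to 4.83 (melanocyte), -4.69 to -4.23 (epithelial), 1.05 to 1.29 (matrix), -0.961 to -0.7 (antigen presentation), -0.401 to -0.269 (interferon) and -0.147 to 0.0723 (immune ligands, above 0 without YUMM2.1 replicate 2, at 0.0723, and without CT26 replicate 2, at 0.00724). Fitted alone, the lines differed in 2051 of 6154 genes tested after 24 h of IFNγ, 1982 of 6576 after 1 week and 1822 of 6286 after 3 weeks in IFNγ without rechallenge (33.3%, 30.1% and 29%, beside 31.5%, 30.2% and 28.9% of 10339), so fewer genes were tested at like shares called. With only the 12 libraries concerned 106 genes differed in their change over 3 weeks and 2 in their 24 h response, and the cause was not tested. Same-numbered replicates of the lines were weakly correlated (correlations of deviations 0.0719, 0.0713 and 0.0313), and each library correlated best with its own number. The differently numbered ones ran from -0.0741 to -0.00626. Whether replicates of 1 number shared a batch was not tested, and with a replicate block 1327 and 1175 genes were called. Depth limits genes near 0: YUMM2.1 replicate 2 held 812316 counts.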
